A study of Homo sapiens with 30 samples.

Results

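Okbyeongpung-san and Soshiho-tang are herbal decoctions of traditional Korean medicine, and the comparison described here asks in which genes their dose responses differed. SW1783, an established line of human astrocytoma (a glial tumour) cells, was kept for 24 h with the ethanol extract of 1 of these decoctions before its RNA was sequenced. The change of each gene from 20 to 500 µg/mL of Okbyeongpung-san (2 libraries at each concentration) was set against its change from 20 to 500 µg/mL of Soshiho-tang (3 libraries at each concentration). The comparison rests on 10 of the 30 libraries of the series. A further 5 libraries at 100 µg/mL (2 of Okbyeongpung-san and 3 of Soshiho-tang) served for the middle concentration, and 3 libraries from cells given only the DMSO vehicle are shown as the background. Libraries with other decoctions were not part of the comparison. Okbyeongpung-san is made from Astragalus root, Atractylodes rhizome and Saposhnikovia root. Soshiho-tang is built on Bupleurum and Scutellaria roots, with Pinellia, ginseng, licorice, ginger and jujube. Both are mixtures, so an equal concentration by weight is not an equal exposure to any compound. SW1783 is 1 tumour line, and nothing here was measured in other cells.

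All groups were of the same line, and the 4 groups compared differed in extract and concentration. The titles place Okbyeongpung-san replicate 2 and all Soshiho-tang and vehicle libraries in a set called batch E, and Okbyeongpung-san replicate 3 in batch D. Each change was taken within an extract, so a shift common to all libraries of an extract drops out. No label states that the replicates were grown as separate cultures. P-values therefore measure no more than the spread among the libraries at hand, and that spread may be technical. Total counts of the 10 libraries lay between 25.7 and 32.9 M. The share of counts from the mitochondrial genome was 5.676% and 6.805% at 500 µg/mL of Okbyeongpung-san and 8.109% and 8.359% at 20 µg/mL, against 6.935% to 7.79% and 6.368% to 9.033% with Soshiho-tang. Of the glial markers, GFAP stayed at or under 0.192 CPM and S100B at or under 0.251 CPM in all 18 libraries, while VIM, the intermediate filament vimentin, stood at 3760 to 5584 CPM. CPM is the count scaled to a common library size with TMM factors, and it is not divided by gene length, so levels are compared between libraries and not between genes. Of the 11 glial markers 5 reached 1 CPM. Among them SOX9, a glial transcription factor, stood at 56.5 to 92.8 CPM, SLC1A3, a glutamate transporter of astrocytes, at 18 to 35.1 CPM and CD44, an adhesion receptor, at 2167 to 3022 CPM. Here levels are given in replicate order, differences are log2 values ± their standard error (SE), and genes are called at an adjusted p under 0.05 in edgeR's quasi-likelihood test over all genes tested.

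Of 16840 genes tested, 575 (3.41%) changed by a different amount with the 2 extracts. The change was higher with Okbyeongpung-san in 369 of them (2.19%) and lower in 206 (1.22%). Scaled by library totals alone, 263 were higher and 241 lower. Without 1 library the higher count lay between 168 and 593 and the lower count between 72 and 432, and the lower count was 137 without Okbyeongpung-san 500 µg/mL replicate 2. With Okbyeongpung-san alone 2260 genes (13.4%) changed, 1171 upward (6.95%) and 1089 downward (6.47%), and with Soshiho-tang alone 3460 (20.5%) changed, 1665 upward (9.89%) and 1795 downward (10.7%). The libraries at 20 and 500 µg/mL did not overlap in 49.7% of all genes with Okbyeongpung-san and in 43.3% with Soshiho-tang. A total of 1105 genes (6.56%) changed in 1 direction with both extracts, 467 upward (2.77%) and 638 downward (3.79%). They are 48.9% of the genes called with Okbyeongpung-san and 31.9% of those called with Soshiho-tang. Of the 1137 genes called with both extracts, 97.2% had the same sign. The percentages of all genes in this paragraph are the background for each list count below. The Okbyeongpung-san count was 1093 and 1496 without its 20 or 500 µg/mL replicate 2 and 3477 with its replicate number, which goes with the batch, as a block. The Soshiho-tang count was 2251 without its 500 µg/mL replicate 2. The shared count was 690 without Okbyeongpung-san 20 µg/mL replicate 2 and 1673 with the block.

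The 575 genes fall into groups by what each extract did alone. In 204 genes only the Okbyeongpung-san change passed the test, 160 of them upward and 44 downward. In 244 genes only the Soshiho-tang change passed, 113 upward and 131 downward. Another 91 genes changed in 1 direction with both extracts but by different amounts, with the larger change under Okbyeongpung-san in 34 and under Soshiho-tang in 57. In 32 genes the extracts moved the level in opposite directions, 19 upward with Okbyeongpung-san and 13 upward with Soshiho-tang, and in 4 genes neither change alone passed. For 919 genes called only with Okbyeongpung-san and 2079 called only with Soshiho-tang the difference itself did not pass the test, so these genes are not shown to be specific to an extract. The count of 575 was sensitive to single libraries. It was 280, 240 and 332 without Soshiho-tang 500 µg/mL replicate 1, 2 or 3, and 277 and 325 without the 20 µg/mL replicate 1 or 2. It was 334 without Okbyeongpung-san 20 µg/mL replicate 2 and 1025 without its 500 µg/mL replicate 3. None of the 575 genes changed sign in any of these fits. With the replicate number of Okbyeongpung-san as a block the count was 1213, and all 575 genes were among them. The 204 genes were 106 without Okbyeongpung-san 20 µg/mL replicate 2, 462 and 368 without its 500 or 20 µg/mL replicate 3, 106, 99 and 132 without Soshiho-tang 500 µg/mL replicate 1, 2 or 3, and 112 and 129 without the 20 µg/mL replicate 1 or 2. The 244 genes were 123, 96 and 137 without Soshiho-tang 500 µg/mL replicate 1, 2 or 3, 112 and 133 without the 20 µg/mL replicate 1 or 2, and 162 without Okbyeongpung-san 20 µg/mL replicate 2. With the block they were 408 and 488.

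**Figure D1:**
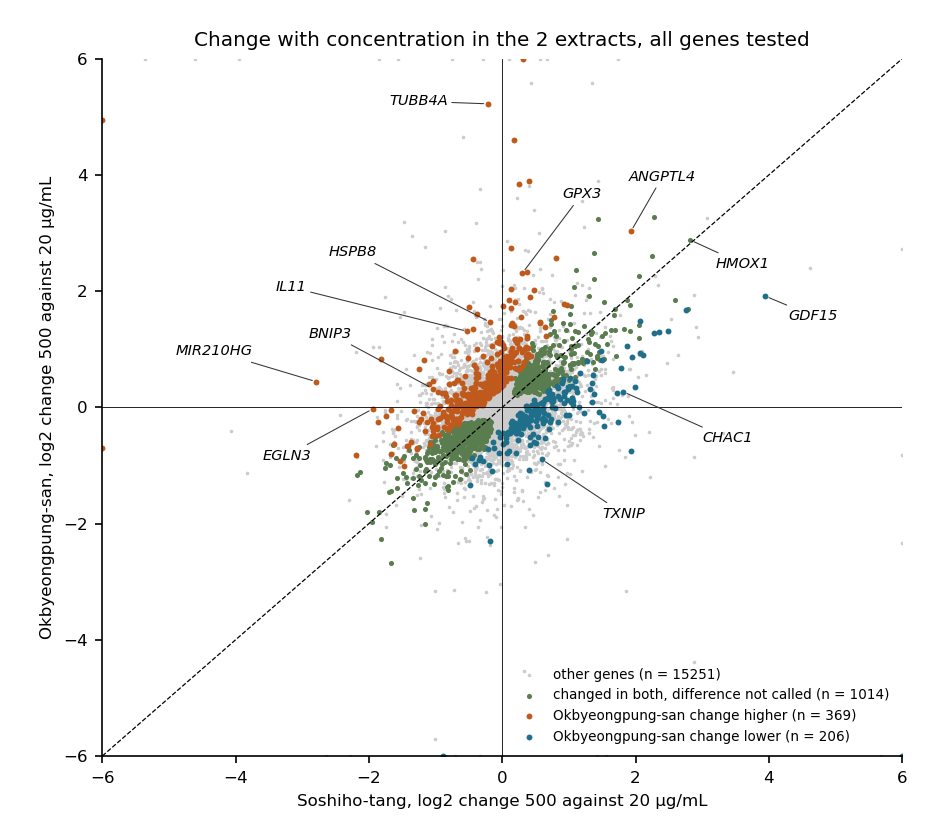
Change of each of 16840 genes from 20 to 500 µg/mL in Soshiho-tang (horizontal axis, log2) and Okbyeongpung-san (vertical axis, log2). Green points are 1014 genes that changed in the same direction with both extracts and whose difference was not called, and orange and blue points are the 369 and 206 genes with a higher or lower change under Okbyeongpung-san. The dashed line marks equal change, and 29 genes beyond a log2 change of 6 are drawn at the edge.

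The shared response included genes of the NRF2 pathway and of mitosis. NRF2 is a transcription factor that is degraded in resting cells and that, on oxidative or electrophilic stress, switches on genes for glutathione synthesis, quinone reduction and heme breakdown through the antioxidant response element. Of 31 NRF2 targets tested, 27 rose with Okbyeongpung-san and 24 rose with Soshiho-tang. The 24 were among the 27, and no target fell with Okbyeongpung-san and 1 (ABCC1) fell with Soshiho-tang. HMOX1 (ENSG00000100292, chr22:35380361-35394214 on GRCh38), the gene of heme oxygenase 1, which breaks down heme, stood at 57.7 and 61 CPM at 20 µg/mL of Okbyeongpung-san and at 415 and 461 CPM at 500 µg/mL. With Soshiho-tang it went from 59.3, 56.7 and 56.5 CPM to 398, 434 and 386 CPM. The high and low libraries were far apart with each extract, and the 500 µg/mL libraries of the 2 extracts overlapped. The log2 change was 2.88 ± 0.09 with Okbyeongpung-san and 2.82 ± 0.07 with Soshiho-tang. Their difference of 0.06 ± 0.11 did not pass the test (adjusted p = 0.806), with a 95% interval of -0.17 to 0.29.

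Other NRF2 targets rose with both extracts without a called difference. NQO1, a quinone reductase, changed by 0.60 ± 0.07 and 0.61 ± 0.06 (interval of the difference -0.23 to 0.19). OSGIN1, an oxidative stress-induced growth inhibitor, changed by 1.30 ± 0.13 and 1.34 ± 0.10 (interval -0.40 to 0.30). SQSTM1, the autophagy receptor p62, stood at 495 and 555 CPM at 20 µg/mL of Okbyeongpung-san and 1844 and 1862 CPM at 500 µg/mL, and at 537, 559 and 511 CPM at 20 µg/mL and 1506, 1599 and 1509 CPM at 500 µg/mL with Soshiho-tang. Its high libraries lay above its low libraries with both extracts, and its difference of 0.30 ± 0.11 was not called here (adjusted p = 0.153). In the fits without 1 library that difference lay between 0.21 and 0.38. It was called in 0 of these 10 fits and in 2 of the 13 other alternative fits.

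A subset of NRF2 targets rose more with Okbyeongpung-san. The difference passed the test in 7 of the 31 targets, all with the higher change under Okbyeongpung-san, beside 2.19% of all genes. DESeq2 called 10 as higher. At an unadjusted p under 0.05 the difference was higher in 16 of the 31 and lower in 0, beside 3175 of 16840 genes in either direction. The median difference of the list was 0.30, beside 0.01 over all genes tested. AKR1C1, an aldo-keto reductase, stood at 21.6 and 22.7 CPM at the low and 74.9 and 75.2 CPM at the high concentration of Okbyeongpung-san, and at 19, 18.1 and 19.2 CPM at 20 µg/mL and 37.3, 37.3 and 35.3 CPM at 500 µg/mL with Soshiho-tang. The 4 sets of libraries did not overlap, and the difference between the changes was 0.79 ± 0.09 (adjusted p = 0.000814). AKR1C1 has near-identical relatives whose reads the counting may have divided, so its level is uncertain. PIR, the iron-binding protein pirin, changed by 1.44 ± 0.10 and 0.57 ± 0.08 and differed by 0.87 ± 0.12 (adjusted p = 0.00283). ME1, the malic enzyme that makes NADPH in the cytosol, changed by 1.01 ± 0.08 and 0.26 ± 0.07 and differed by 0.76 ± 0.11 (adjusted p = 0.00283). SRXN1 (sulfiredoxin), GSR (glutathione reductase) and PGD (an enzyme of the pentose phosphate pathway) differed by 0.57 ± 0.12, 0.44 ± 0.10 and 0.40 ± 0.09. The seventh was AKR1B10, an aldo-keto reductase whose call was lost without Okbyeongpung-san 20 µg/mL replicate 2 (difference 0.78) or Soshiho-tang 20 µg/mL replicate 1 (0.86). The count of 7 was 4 without Soshiho-tang 500 µg/mL replicate 1 or 20 µg/mL replicate 1 or 2.

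The antioxidant response element is shown in ME1 because it is the sequence through which NRF2 acts and ME1 is among the targets that differed. The 250 bases before the RefSeq start of ME1 (chr6:83431052-83431301, minus strand, GRCh38.p14) hold 1 match, in capitals, to its core TGACNNNGC, beginning 137 bases before the start. Motifs were searched on both strands.
ME1: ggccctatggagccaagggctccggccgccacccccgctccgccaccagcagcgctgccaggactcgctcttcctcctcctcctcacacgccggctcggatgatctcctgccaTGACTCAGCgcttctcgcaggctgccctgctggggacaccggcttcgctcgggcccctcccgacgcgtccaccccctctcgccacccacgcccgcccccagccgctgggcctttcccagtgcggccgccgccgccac
The core was found in 4 of 23 NRF2 targets with a sequence in the table (17.39%) and in 11.03% of all 27305 promoter windows of this length. A match describes letters, not a bound site.

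Genes of mitosis fell with both extracts, as did 3.79% of all genes (6.47% fell with Okbyeongpung-san and 10.7% with Soshiho-tang). Of 34 genes of the mitotic list, 27 fell with Okbyeongpung-san and 31 with Soshiho-tang, 27 fell with both, and the difference was called in 0 genes by edgeR (1 at an unadjusted p under 0.05, 0 by DESeq2 and 0 in each fit without 1 library). MKI67, the proliferation marker Ki-67, stood at 432 and 323 CPM at 20 µg/mL of Okbyeongpung-san and at 229 and 192 CPM at 500 µg/mL. With Soshiho-tang it stood at 327, 323 and 358 CPM at 20 µg/mL and 205, 173 and 182 CPM at 500 µg/mL. The libraries at the low concentration lay above all libraries at the high concentration, in both extracts. MKI67 changed by -0.84 ± 0.13 and -0.85 ± 0.11, and the interval of the difference was -0.36 to 0.37. KIF20A, a kinesin of the mitotic spindle, changed by -0.90 ± 0.08 and -0.96 ± 0.06 (interval -0.16 to 0.27). PLK1, a mitotic kinase, changed by -0.56 ± 0.12 and -0.54 ± 0.10 (interval -0.36 to 0.31). Of 36 genes of DNA replication, 13 fell with Okbyeongpung-san and 10 with Soshiho-tang, 5 of them with both, and 1 rose with Soshiho-tang. Their median change was -0.25 with Okbyeongpung-san and -0.11 with Soshiho-tang. The difference was called in 0 of the 36 by edgeR, with 11 lower and 3 higher at an unadjusted p under 0.05. This list was thus less alike between the extracts than the mitotic one. TYMS (thymidylate synthase) and RRM2 (the small subunit of ribonucleotide reductase) were among the 5 that fell with both. Their changes were -0.50 ± 0.08 and -0.47 ± 0.06 and -0.38 ± 0.07 and -0.49 ± 0.06.

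Promoters of genes that peak in mitosis commonly carry a cell cycle homology region, with the letters TTTGAA close to the start, to which repressor complexes bind. PLK1 (chr16:23678639-23678888, plus strand) holds 1 match, 29 bases before the start, and MKI67 (chr10:128126424-128126673, minus strand) holds 2, at 47 and 29 bases. The windows are RefSeq sequence of GRCh38.p14 and the capitals mark TTTGAA.
PLK1: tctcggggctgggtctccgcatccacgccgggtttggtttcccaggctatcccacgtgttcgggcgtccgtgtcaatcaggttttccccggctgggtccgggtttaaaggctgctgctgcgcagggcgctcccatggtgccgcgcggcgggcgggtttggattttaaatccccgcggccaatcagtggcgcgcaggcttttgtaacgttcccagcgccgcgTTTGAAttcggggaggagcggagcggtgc
MKI67: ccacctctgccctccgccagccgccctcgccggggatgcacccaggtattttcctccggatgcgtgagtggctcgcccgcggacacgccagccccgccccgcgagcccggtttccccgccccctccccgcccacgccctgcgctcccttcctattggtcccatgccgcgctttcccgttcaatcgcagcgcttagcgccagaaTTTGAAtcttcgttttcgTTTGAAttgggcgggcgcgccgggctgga
The motif was present in 17 of 29 mitotic promoters (58.62%) and in 13.57% of all promoters.

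**Figure D2:**
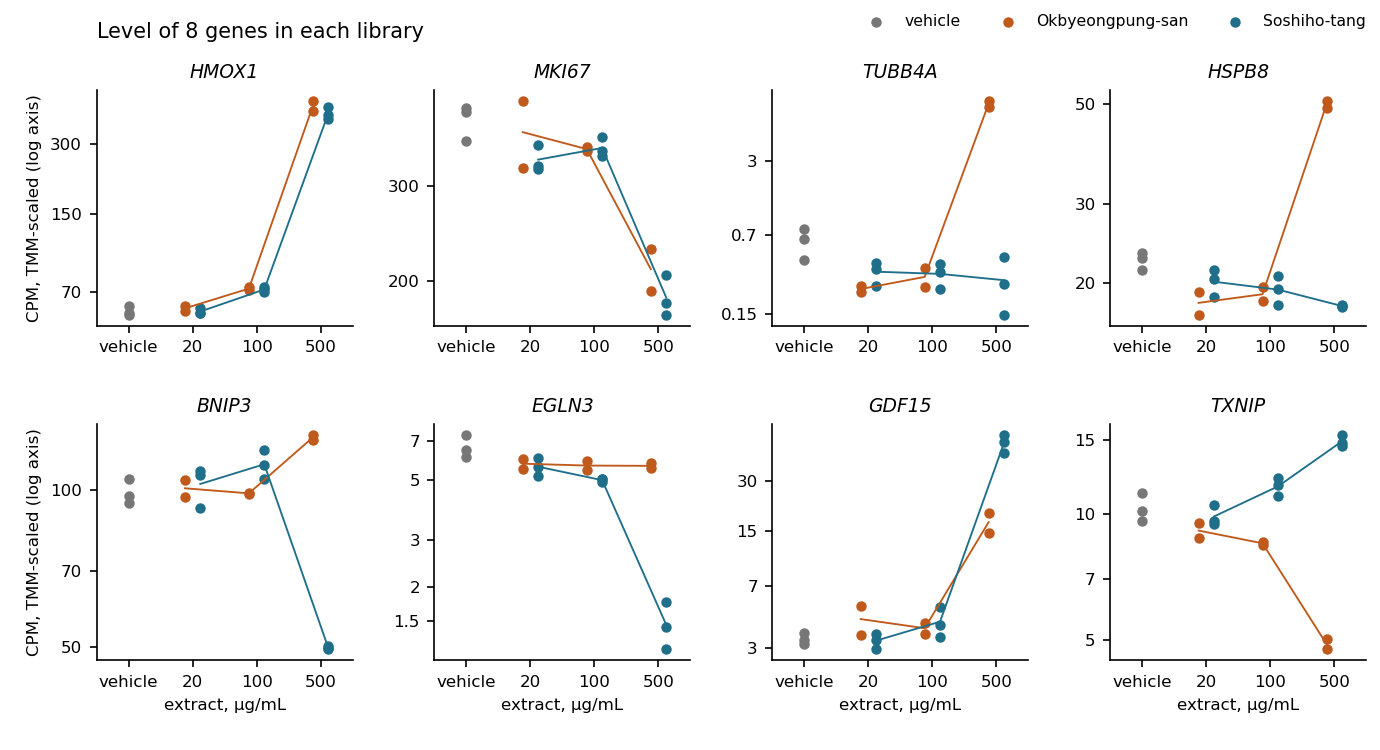
Level of 8 genes in each library (CPM, log axis, 1 scale per panel) with vehicle and at 20, 100 and 500 µg/mL of Okbyeongpung-san (orange) and Soshiho-tang (blue), with lines through the group means. HMOX1 is high and MKI67 low at 500 µg/mL of both extracts, TUBB4A and HSPB8 are high only at 500 µg/mL of Okbyeongpung-san among the groups shown, BNIP3 and EGLN3 are low at 500 µg/mL of Soshiho-tang, GDF15 is higher with Soshiho-tang and TXNIP moves in opposite directions.

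The widest difference among the named genes was in TUBB4A, a beta-tubulin that is a component of microtubules and is known mainly from neurons and myelinating glia. TUBB4A (ENSG00000104833, chr19:6494319-6502848, minus strand) stood at 0.23 and 0.257 CPM at 20 µg/mL of Okbyeongpung-san and at 9.87 and 8.77 CPM at 500 µg/mL. With Soshiho-tang it stood at 0.26, 0.359 and 0.409 CPM at 20 µg/mL and 0.453, 0.27 and 0.147 CPM at 500 µg/mL, and in vehicle libraries at 0.796, 0.656 and 0.432 CPM. The 500 µg/mL libraries of Okbyeongpung-san lay above all others, and the Soshiho-tang libraries overlapped. The change was 5.23 ± 0.31 with Okbyeongpung-san and -0.22 ± 0.37 with Soshiho-tang, a difference of 5.44 ± 0.51 (adjusted p = 0.000189). The gene overlaps 2 entries of the annotation whose reads cannot be told apart from its own without the strand setting of the counting. In a list of 14 genes, tubulins and the kinesin KIF1A, the difference was called in TUBB4A and KIF1A only, and the call of KIF1A was lost in 9 of the 10 fits without 1 library.

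The 250 bases before the start of TUBB4A (chr19:6502849-6503098, minus strand, GRCh38.p14) are shown because the gene differed most among the named genes. They hold 2 matches to the CCAAT box (in capitals, 152 and 28 bases before the start), a motif found in 33.04% of all promoters, and no match to the other 5 motifs searched.
TUBB4A: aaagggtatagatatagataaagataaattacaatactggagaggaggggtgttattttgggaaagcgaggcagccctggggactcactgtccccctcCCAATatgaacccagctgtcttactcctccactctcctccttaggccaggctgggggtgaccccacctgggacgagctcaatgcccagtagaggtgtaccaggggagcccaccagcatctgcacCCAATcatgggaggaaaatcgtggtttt

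Further genes rose with Okbyeongpung-san, did not pass the test with Soshiho-tang, and kept their call in all fits without 1 library. GPX3, the extracellular glutathione peroxidase, stood at 6.41 and 7.59 CPM at 20 µg/mL and rose to 38.1 and 31.8 CPM at 500 µg/mL with Okbyeongpung-san, against 6.75, 5.99 and 6.21 CPM at 20 µg/mL and 7.61, 8.44 and 7.3 CPM at 500 µg/mL with Soshiho-tang. Its difference was 2.01 ± 0.16 (adjusted p = 7.69e-05). KIAA0319, a membrane protein linked to neuronal migration, stood at 0.23 and 0.386 CPM at 20 µg/mL and 4.61 and 4.57 CPM at 500 µg/mL, against 0.445, 0.27 and 0.335 CPM at 20 µg/mL and 0.453, 0.27 and 0.514 CPM at 500 µg/mL (difference 3.60 ± 0.48). In both genes the high libraries of Okbyeongpung-san stood apart from the other 8. NAP1L2, a nucleosome assembly protein, and the transmembrane proteins TMEM179 and TMEM255A differed by 1.95 ± 0.29, 1.92 ± 0.34 and 1.98 ± 0.25.

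A set of cytosolic heat shock genes rose with Okbyeongpung-san alone. Heat shock proteins are chaperones that hold unfolded proteins, and their genes are switched on by the factor HSF1 through the heat shock element. Of 20 genes of this list, 8 rose with Okbyeongpung-san and 0 with Soshiho-tang, with which 4 fell. Among all genes 6.95% rose with Okbyeongpung-san, and 9.89% rose and 10.7% fell with Soshiho-tang. The difference was called in 7 of 20, each with the higher change under Okbyeongpung-san, beside 2.19% of all genes. HSPB8, a small heat shock protein that works with the autophagy machinery, stood at 17 and 19.1 CPM at 20 µg/mL of Okbyeongpung-san and at 49 and 50.9 CPM at 500 µg/mL. With Soshiho-tang it stood at 18.6, 20.4 and 21.3 CPM at 20 µg/mL and 17.8, 17.7 and 17.8 CPM at 500 µg/mL. The high Okbyeongpung-san libraries lay above all others, and the high Soshiho-tang libraries lay below the low ones, by a change that did not pass the test (-0.18 ± 0.07). Its difference was 1.65 ± 0.11 (adjusted p = 3.29e-05). HSPB8 also overlaps 2 other entries of the annotation.

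HSPA1A, an inducible Hsp70 chaperone, stood at 103 and 129.8 CPM at 20 µg/mL and 249.7 and 237 CPM at 500 µg/mL with Okbyeongpung-san, against 111, 107 and 114 CPM at 20 µg/mL and 101, 101 and 95 CPM at 500 µg/mL with Soshiho-tang. It differed by 1.22 ± 0.13 (adjusted p = 0.000426) and its near-identical copy HSPA1B by 1.29 ± 0.13. Reads of the pair can be divided only uncertainly. HSPA8, the constitutive member of the family, rose by 0.37 ± 0.09 with Okbyeongpung-san and fell with Soshiho-tang (log2 change -0.28 ± 0.07). DNAJA1, DNAJB1 and DNAJB4, co-chaperones of Hsp70, differed by 0.65 ± 0.13, 0.38 ± 0.09 and 0.41 ± 0.10. The count of 7 was 4 without Okbyeongpung-san 20 µg/mL replicate 2, Soshiho-tang 20 µg/mL replicate 1 or Soshiho-tang 500 µg/mL replicate 2, 11 with the block for Okbyeongpung-san and 11 in batch E alone. In 19 chaperones of the endoplasmic reticulum the difference was called in 0 by edgeR, with 6 higher and 1 lower at an unadjusted p under 0.05, and 6 rose with Okbyeongpung-san and 3 with Soshiho-tang.

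The heat shock element is shown in HSPB8 (chr12:119178681-119178930, plus strand) and HSPA1A (chr6:31815293-31815542, plus strand), whose changes differed and whose RefSeq windows (GRCh38.p14) each hold 1 match to its core GAANNTTC. The match, in capitals, begins 88 and 106 bases before the start.
HSPB8: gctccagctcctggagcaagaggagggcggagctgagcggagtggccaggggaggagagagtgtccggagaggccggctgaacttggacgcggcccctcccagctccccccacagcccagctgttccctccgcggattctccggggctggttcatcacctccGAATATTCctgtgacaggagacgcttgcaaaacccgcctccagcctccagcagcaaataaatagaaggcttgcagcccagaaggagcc
HSPA1A: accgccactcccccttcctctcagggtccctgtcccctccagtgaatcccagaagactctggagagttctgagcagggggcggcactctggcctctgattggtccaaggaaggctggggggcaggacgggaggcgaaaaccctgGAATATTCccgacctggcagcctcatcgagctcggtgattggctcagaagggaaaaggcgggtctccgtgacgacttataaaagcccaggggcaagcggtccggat
The core was present in 7 of 18 promoters of the list (38.89%) and in 5.85% of all promoters. The TUBB4A window above holds none.

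Subunits of the proteasome, the protease that degrades ubiquitin-tagged proteins, also rose with Okbyeongpung-san. This list of 33 subunits was drawn up after the values were seen, so its counts are a description. All 33 were tested, 32 rose with Okbyeongpung-san, and 0 changed with Soshiho-tang by edgeR (0 also at an unadjusted p under 0.05). The difference was called in 21 of 33, each with the higher change under Okbyeongpung-san, beside 2.19% of all genes. The median change was 0.72 with Okbyeongpung-san (range 0.32 to 1.08) and 0.06 with Soshiho-tang (range -0.05 to 0.18). By part of the complex, all 7 subunits of the alpha ring of the core, 3 of 7 of the beta ring, 5 of 6 of the ATPase ring and 6 of 13 other subunits of the regulatory particle were called in the difference. Without 1 library the count lay between 15 and 26.

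PSMD13, a subunit of the regulatory particle, stood at 67.6 and 73.6 CPM at 20 µg/mL of Okbyeongpung-san and at 156 and 142 CPM at 500 µg/mL. With Soshiho-tang it stood at 85.4, 86.6 and 72.9 CPM at 20 µg/mL and 78.4, 82.9 and 85.3 CPM at 500 µg/mL. The high Okbyeongpung-san libraries lay above all others. The difference was 1.06 ± 0.12 (adjusted p = 0.000694). PSMC6, an ATPase of the regulatory particle, and PSMA1, of the core, differed by 0.83 ± 0.10 and 0.67 ± 0.09. Summed over the 33 subunits, the level was 4335 and 4856 CPM at 20 µg/mL of Okbyeongpung-san and 6893 and 7468 CPM at 500 µg/mL, against 4942 to 5070 and 5022 to 5270 CPM with Soshiho-tang and 4588 to 4945 CPM with vehicle. VCP, the ATPase that hands ubiquitin-tagged proteins to the proteasome, was chosen after its values were seen and differed by 0.76 ± 0.13 (adjusted p = 0.00694). The antioxidant core was present in 4 of 28 proteasome promoters (14.29%) and the heat shock core in 0 of 28.

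**Figure D3:**
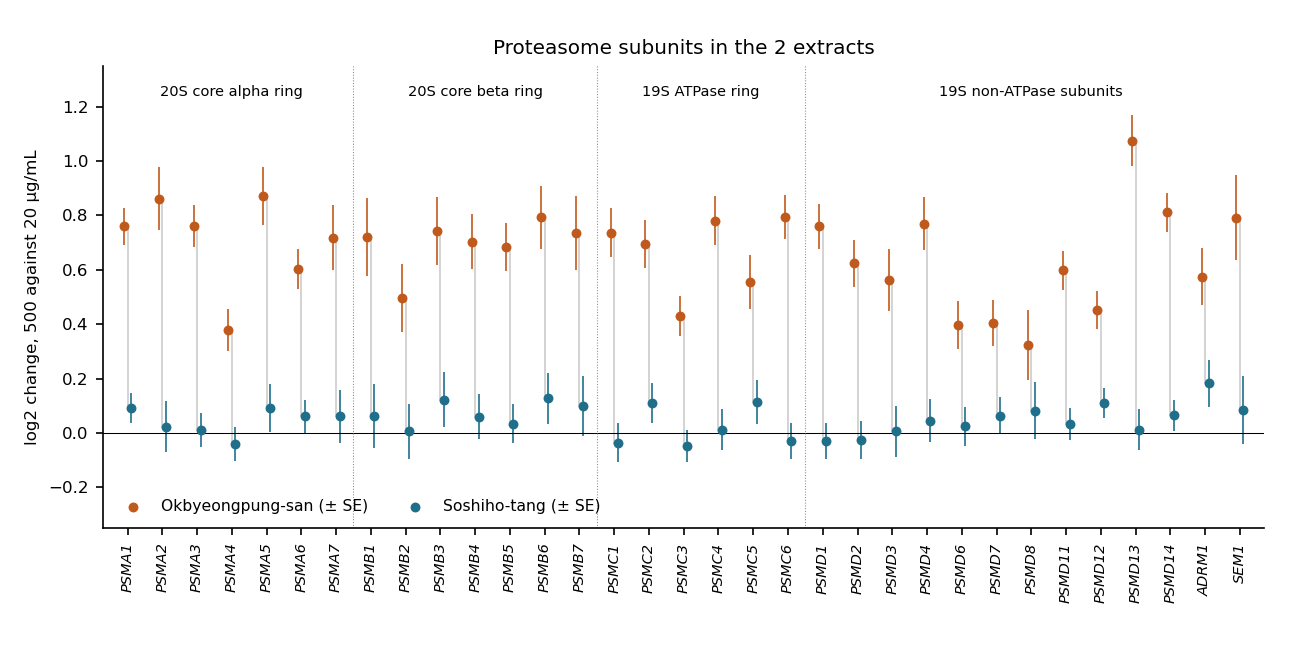
Change of each of 33 proteasome subunits from 20 to 500 µg/mL (vertical axis, log2, ± SE) with Okbyeongpung-san (orange) and Soshiho-tang (blue), ordered by part of the complex. The Okbyeongpung-san values run from 0.32 to 1.08 and the Soshiho-tang values from -0.05 to 0.18.

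Most genes of the hypoxia response fell with Soshiho-tang, and several rose with Okbyeongpung-san. The factor HIF-1 drives these genes when oxygen is short, and they include regulators of its own breakdown, of mitochondrial removal and of glycolysis. Of 19 genes of the list, 11 fell and 4 rose with Soshiho-tang, while with Okbyeongpung-san 7 rose and 0 fell (1 was lower at an unadjusted p under 0.05). The difference was called in 9 of 19, each higher with Okbyeongpung-san, beside 2.19% of all genes, and the median difference was 0.46. BNIP3, a receptor for the removal of mitochondria, stood at 97.1 and 105 CPM at 20 µg/mL of Okbyeongpung-san and at 128 and 125 CPM at 500 µg/mL. With Soshiho-tang it stood at 109, 107 and 92.6 CPM at 20 µg/mL and 49.7, 49.5 and 50.3 CPM at 500 µg/mL. It rose with Okbyeongpung-san and fell with Soshiho-tang, to below the vehicle libraries (105, 97.4 and 94.7 CPM), with a difference of 1.37 ± 0.11 (adjusted p = 5.77e-05).

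EGLN3, an oxygen-sensing prolyl hydroxylase that marks HIF for breakdown, stood at 5.99 and 5.5 CPM at 20 µg/mL and 5.76 and 5.52 CPM at 500 µg/mL with Okbyeongpung-san, against 5.6, 6.02 and 5.17 CPM at 20 µg/mL and 1.42, 1.76 and 1.17 CPM at 500 µg/mL with Soshiho-tang. The Okbyeongpung-san libraries overlapped and the Soshiho-tang libraries did not, and the difference was 1.92 ± 0.21 (adjusted p = 0.000567). MIR210HG, the host transcript of a hypoxia-induced microRNA and not in the list, fell with Soshiho-tang by 2.79 on the log2 scale, from 3.38, 3.74 and 2.86 CPM to 0.388, 0.54 and 0.514 CPM. With Okbyeongpung-san it stood at 2.65 and 3.28 CPM at 20 µg/mL and 3.77 and 4.31 CPM at 500 µg/mL, and the difference was 3.23 ± 0.28 (adjusted p = 0.000134). MIR210HG also overlaps other entries of the annotation, so without the strand setting of the counting its level is uncertain.

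Not all members of the list fell with Soshiho-tang. NDRG1, a stress-response gene, rose with Okbyeongpung-san from 52.5 and 55.5 CPM to 156 and 141 CPM and did not pass the test with Soshiho-tang (42.9, 44.1 and 45.1 CPM at 20 µg/mL and 48.1, 52 and 46.2 CPM at 500 µg/mL), a difference of 1.31 ± 0.10. ANGPTL4, a secreted inhibitor of lipoprotein lipase that other factors than HIF also drive, rose with both, by 3.03 ± 0.13 and 1.93 ± 0.10, and differed by 1.10 ± 0.16 (adjusted p = 0.00343). VEGFA, the vascular growth factor, and ADM (adrenomedullin) rose with both, and their intervals of the difference were -0.35 to 0.06 and -0.16 to 0.46. CA9, the carbonic anhydrase of the cell surface, PDK1, a kinase that shuts the entry of pyruvate into mitochondria, and BNIP3L, a relative of BNIP3, differed by 0.96 ± 0.14, 0.82 ± 0.15 and 0.73 ± 0.09.

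Part of the genes of glycolysis and glucose transport fell with Soshiho-tang. Of 22 genes, 11 fell and 4 rose with Soshiho-tang, and 5 rose and 0 fell with Okbyeongpung-san (2 were lower at an unadjusted p under 0.05). The difference was called in 7, each higher with Okbyeongpung-san, beside 2.19% of all genes. SLC2A1, the glucose transporter GLUT1, stood at 186 and 187 CPM at 20 µg/mL and 159 and 165 CPM at 500 µg/mL with Okbyeongpung-san, against 186, 179.7 and 177 CPM at 20 µg/mL and 91.3, 91.4 and 94.4 CPM at 500 µg/mL with Soshiho-tang. The change did not pass the test with Okbyeongpung-san (log2 -0.20 ± 0.07, adjusted p = 0.0588) and was -0.97 ± 0.05 with Soshiho-tang, a difference of 0.77 ± 0.08. PGK1, phosphoglycerate kinase, differed by 0.62 ± 0.11 and the regulatory enzymes PFKFB4 and PFKFB3 by 0.68 ± 0.10 and 0.65 ± 0.11. SLC2A3, the transporter GLUT3, rose with both, by 0.62 ± 0.07 and 0.63 ± 0.06 (interval of the difference -0.21 to 0.18). The count of 7 was 4 without Soshiho-tang 500 µg/mL replicate 2 and 12 with the block for Okbyeongpung-san.

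The hypoxia response element core ACGTG is shown in BNIP3 (chr10:131981924-131982173, minus strand), which moved in opposite directions, and PGK1 (chrX:78103998-78104247, plus strand), of the glycolytic list (RefSeq, GRCh38.p14). Capitals mark the matches, which overlap on both strands in BNIP3 at 134 and 133 bases before the start and begin at 202 and 183 bases in PGK1.
BNIP3: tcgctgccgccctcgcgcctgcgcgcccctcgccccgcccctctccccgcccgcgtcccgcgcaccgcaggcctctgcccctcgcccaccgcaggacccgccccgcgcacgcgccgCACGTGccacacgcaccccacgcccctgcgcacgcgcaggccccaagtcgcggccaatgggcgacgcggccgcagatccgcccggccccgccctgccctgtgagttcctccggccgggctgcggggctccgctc
PGK1: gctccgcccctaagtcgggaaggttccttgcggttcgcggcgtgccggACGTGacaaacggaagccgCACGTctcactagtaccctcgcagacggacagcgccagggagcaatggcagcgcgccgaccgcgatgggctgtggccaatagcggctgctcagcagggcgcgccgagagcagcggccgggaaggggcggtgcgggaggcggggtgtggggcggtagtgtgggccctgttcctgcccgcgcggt
The core was present in 10 of 16 hypoxia promoters (62.5%), in 8 of 21 glycolytic promoters (38.1%) and in 18.68% of all promoters.

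**Figure D4:**
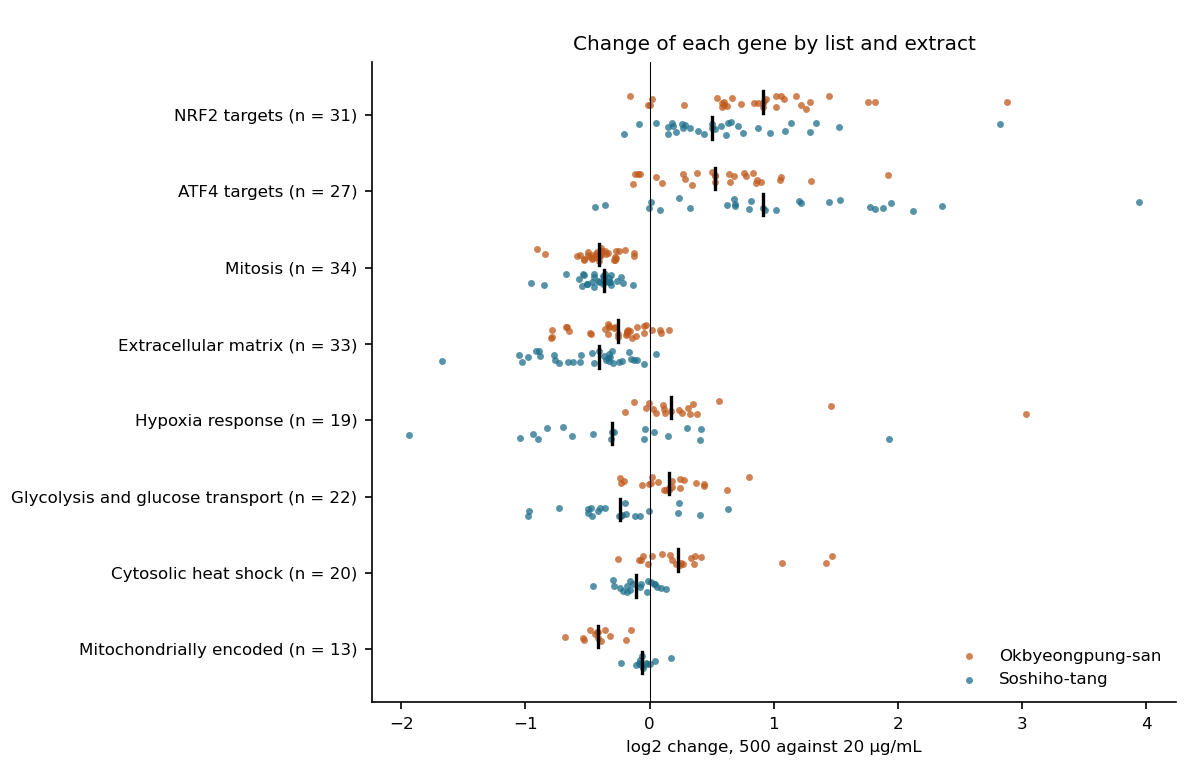
Change of each gene from 20 to 500 µg/mL (horizontal axis, log2) in 8 gene lists with Okbyeongpung-san (orange) and Soshiho-tang (blue), with black bars at the medians. The medians lie close together for mitosis (-0.40 and -0.37) and on opposite sides of 0 for hypoxia (0.17 and -0.30) and glycolysis (0.16 and -0.24).

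Most targets of ATF4 rose with both extracts, and 10 of 27 had the higher change with Soshiho-tang. ATF4 is translated when the integrated stress response slows protein synthesis, as in amino acid shortage, and switches on genes for amino acid supply and for stress-induced death. Of 27 targets, 19 rose with Okbyeongpung-san and 21 with Soshiho-tang, 18 of them with both, and 2 fell with Soshiho-tang. The difference was called in 10 of 27, all lower with Okbyeongpung-san, beside 1.22% of all genes. At an unadjusted p under 0.05 it was lower in 17 and higher in 2, and 1 was called higher in the fits with 15 and with 27 libraries. The median change was 0.53 with Okbyeongpung-san and 0.91 with Soshiho-tang. The count of 10 was 6 without Soshiho-tang 500 µg/mL replicate 1.

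GDF15, a secreted stress hormone of the TGF-beta family (ENSG00000130513, chr19:18374731-18389176), stood at 3.57 and 5.34 CPM at 20 µg/mL of Okbyeongpung-san and at 14.7 and 19.3 CPM at 500 µg/mL. With Soshiho-tang it stood at 3.34, 2.93 and 3.64 CPM at 20 µg/mL and 51.4, 56.4 and 44.2 CPM at 500 µg/mL. It rose with both, the high Soshiho-tang libraries lay above all others, and the difference was -2.03 ± 0.25 (adjusted p = 0.00136). CHAC1, which degrades glutathione, stood at 5.38 and 6.27 CPM at 20 µg/mL and 6.02 and 8.04 CPM at 500 µg/mL with Okbyeongpung-san, against 6.35, 5.06 and 6.36 CPM at 20 µg/mL and 20.4, 22.8 and 19.1 CPM at 500 µg/mL with Soshiho-tang. Only its Soshiho-tang change passed the test, and the difference was -1.55 ± 0.21 (adjusted p = 0.00213). SESN2, a leucine sensor that restrains mTORC1, rose by 0.68 ± 0.08 and 1.78 ± 0.07 and differed by -1.10 ± 0.11. TRIB3, a pseudokinase that feeds back on ATF4, DDIT3, the death-promoting factor CHOP, and NUPR1, a stress-induced chromatin protein, differed by -1.05 ± 0.15, -0.82 ± 0.15 and -1.09 ± 0.24. The amino acid transporter subunit SLC3A2 rose with both (0.87 ± 0.08 and 0.93 ± 0.07, interval of the difference -0.29 to 0.16). ASNS, asparagine synthetase, rose by 1.05 ± 0.08 and 1.44 ± 0.07, and its difference of -0.39 ± 0.10 narrowly missed the threshold (adjusted p = 0.063), which it passed in 7 of the 23 other fits. Of 20 cytosolic tRNA synthetases, which ATF4 also drives, 8 rose with Okbyeongpung-san and 11 with Soshiho-tang, 8 of them with both. With Soshiho-tang 1 fell. The difference was called in 2, both lower with Okbyeongpung-san, AARS1 (-0.50, adjusted p = 0.0159) and WARS1 (-0.55, adjusted p = 0.0413). These calls were lost in 3 and 7 of the 10 fits without 1 library.

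The C/EBP-ATF composite element, to which ATF4 binds with a partner, is shown in CHAC1, whose change passed the test with Soshiho-tang alone. The RefSeq window (chr15:40953221-40953470, plus strand, GRCh38.p14) holds 1 match to the core TGATGNAA, on the opposite strand and in capitals, 209 bases before the start.
CHAC1: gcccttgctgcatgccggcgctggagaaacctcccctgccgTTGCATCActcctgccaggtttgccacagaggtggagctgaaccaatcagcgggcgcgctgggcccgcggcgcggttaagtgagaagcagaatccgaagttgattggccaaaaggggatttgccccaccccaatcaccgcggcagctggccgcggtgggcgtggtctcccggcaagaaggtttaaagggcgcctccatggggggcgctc
The core was present in 3 of 26 ATF4 target promoters (11.54%) and in 3.19% of all promoters.

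Other genes had a rise that passed the test with Soshiho-tang only. GPNMB, a glycoprotein of lysosomes and melanosomes, stood at 7.87, 8.8 and 10.9 CPM at 20 µg/mL and 30.2, 33 and 27.7 CPM at 500 µg/mL with Soshiho-tang, against 11.5 and 11.3 CPM at 20 µg/mL and 13.6 and 13.6 CPM at 500 µg/mL with Okbyeongpung-san. Its high Okbyeongpung-san libraries also lay above its low ones. Its difference was -1.47 ± 0.17 (adjusted p = 0.000814). ULBP1, a ligand of the receptor NKG2D of natural killer cells, and PIFO, a protein of the primary cilium, differed by -1.64 ± 0.29 and -1.66 ± 0.29. PSG1, a pregnancy-specific glycoprotein with close relatives that may share its reads, differed by -1.85 ± 0.30. Of 30 lysosome and autophagy genes, 14 rose with Okbyeongpung-san and 22 with Soshiho-tang, 12 of them with both. The difference was called in 4, in both directions, beside 3.41% of all genes. GLA, the lysosomal alpha-galactosidase, and GABARAPL1, a protein of the autophagosome, had the higher change with Okbyeongpung-san (0.88 ± 0.14 and 0.81 ± 0.16), while GPNMB and the cholesterol exporter NPC1 had the lower. The call of NPC1 (-0.48 ± 0.10) was lost in 5 of the 10 fits without 1 library.

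In 32 genes the direction of the change itself differed. TXNIP, which binds thioredoxin and restrains glucose uptake, stood at 9.49 and 8.74 CPM at 20 µg/mL and 5.03 and 4.75 CPM at 500 µg/mL with Okbyeongpung-san, against 9.61, 9.43 and 10.5 CPM at 20 µg/mL and 14.5, 14.7 and 15.4 CPM at 500 µg/mL with Soshiho-tang. It fell in both Okbyeongpung-san replicates and rose in all Soshiho-tang replicates, a difference of -1.49 ± 0.13 (adjusted p = 0.00014). EGR1, an immediate early transcription factor, stood at 43.7 and 48.8 CPM at 20 µg/mL and 30.6 and 34.1 CPM at 500 µg/mL with Okbyeongpung-san, against 38.7, 32.9 and 38.9 CPM at 20 µg/mL and 54.2, 55.8 and 49.8 CPM at 500 µg/mL with Soshiho-tang (difference -1.05 ± 0.13). IL11, a cytokine of the IL-6 family, went the other way. Its level was 44.1 and 63.5 CPM at the low and 126 and 141 CPM at the high concentration of Okbyeongpung-san, and 63.6, 70.8 and 59.9 CPM at 20 µg/mL and 39.6, 42.5 and 53.4 CPM at 500 µg/mL with Soshiho-tang (difference 1.83 ± 0.21, adjusted p = 0.000814). No library at 500 µg/mL overlapped those at 20 µg/mL in these genes.

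Growth factors and matrix enzymes were also among the 32. EGF, the epidermal growth factor, stood at 0.999 and 1.09 CPM at 20 µg/mL and 1.94 and 1.75 CPM at 500 µg/mL with Okbyeongpung-san, against 1.41, 1.02 and 1.56 CPM at 20 µg/mL and 0.55, 0.574 and 0.624 CPM at 500 µg/mL with Soshiho-tang (difference 1.99 ± 0.34). PGF, the placental growth factor, HAS2, a hyaluronan synthase, and GBE1, the glycogen branching enzyme, rose with Okbyeongpung-san and fell with Soshiho-tang, with differences of 1.36 ± 0.23, 0.82 ± 0.12 and 0.88 ± 0.14. OASL, an interferon-induced gene, fell with Okbyeongpung-san and rose with Soshiho-tang. Its difference of -1.06 ± 0.22 was lost without Okbyeongpung-san 20 µg/mL replicate 2 (-0.85) or Soshiho-tang 500 µg/mL replicate 1 (-1.06) or 3 (-1.02). The count of 32 was 13 without Okbyeongpung-san 20 µg/mL replicate 2, 76 and 49 without its 500 or 20 µg/mL replicate 3, 14, 11 and 16 without Soshiho-tang 500 µg/mL replicate 1, 2 or 3, and 13 and 19 without the 20 µg/mL replicate 1 or 2.

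Signals between cells were divided within their lists. Of 20 inflammatory genes tested, 9 rose with Okbyeongpung-san and 10 with Soshiho-tang, 6 of them with both, and the chemokine CCL2 fell with both (-1.45 ± 0.22 and -1.70 ± 0.19). LIF, the leukemia inhibitory factor, stood at 22.5, 22.7 and 22.3 CPM at 20 µg/mL and 50.1, 59 and 62 CPM at 500 µg/mL with Soshiho-tang, against 19.2 and 24.7 CPM at 20 µg/mL and 26.6 and 32.4 CPM at 500 µg/mL with Okbyeongpung-san (difference -0.92 ± 0.17). PTGS2, the inducible cyclooxygenase, fell with Soshiho-tang from 84.8, 82.5 and 78 CPM to 51.9, 47.4 and 54.6 CPM and stood at 108 and 98.9 CPM at 20 µg/mL and 95 and 103 CPM at 500 µg/mL with Okbyeongpung-san (difference 0.61 ± 0.11). Of 18 interferon-stimulated genes, 3 rose and 3 fell with Okbyeongpung-san, and 7 rose and 0 fell with Soshiho-tang. A called difference was found in 4 of them, lower with Okbyeongpung-san in IFIT3, OAS3 and IFIT2 and higher in IFI44. Beside these stand 1.22% of all genes called lower and 2.19% called higher. IFIT3 and OAS3, antiviral effectors, differed by -0.78 ± 0.12 and -0.66 ± 0.10. The calls of IFIT2 (-1.07 ± 0.24) and IFI44 (0.48 ± 0.10) were each lost in 5 of the 10 fits without 1 library. The higher count of 1 was 0 without Okbyeongpung-san 500 or 20 µg/mL replicate 2, Soshiho-tang 500 µg/mL replicate 1 or 2 or its 20 µg/mL replicate 1, and 2 without Okbyeongpung-san 20 µg/mL replicate 3. The lower count of 3 was 5 and 6 without Okbyeongpung-san 500 or 20 µg/mL replicate 3.

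Genes of the extracellular matrix fell in part with both extracts, and in 4 of 33 the called difference placed the lower change with Soshiho-tang (12 at an unadjusted p under 0.05, with 1 in the other direction). Of 33 matrix genes, 12 fell with Okbyeongpung-san and 25 with Soshiho-tang, the 12 among the 25, and 0 rose. Among all genes 6.47% fell with Okbyeongpung-san, 10.7% fell with Soshiho-tang and 2.19% were called higher in the difference. THBS1, the matricellular protein thrombospondin 1, stood at 2085 and 1813 CPM at 20 µg/mL and 1104 and 1141 CPM at 500 µg/mL with Okbyeongpung-san, against 1888, 1947 and 1678 CPM at 20 µg/mL and 578, 522 and 629 CPM at 500 µg/mL with Soshiho-tang. The high and low libraries did not overlap, and the difference was 0.88 ± 0.14 (adjusted p = 0.00476). COL1A2, a chain of type I collagen, stood at 1691 and 1558 CPM at 20 µg/mL and 1373 and 1209 CPM at 500 µg/mL, against 1783, 1631 and 1483 CPM at 20 µg/mL and 801, 757 and 806 CPM at 500 µg/mL (difference 0.72 ± 0.13). COL12A1, a collagen of fibril surfaces, and VCAN, the proteoglycan versican, fell with both, with intervals of the difference of -0.29 to 0.26 and -0.18 to 0.35. The difference was called in 4 of 33, 2 without Soshiho-tang 20 µg/mL replicate 1 or 500 µg/mL replicate 2, and 9 with the block for Okbyeongpung-san.

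The 6 fibroblast markers, which include COL1A1, summed to 2614 to 3195 CPM at 500 µg/mL of Okbyeongpung-san and 3672 to 3725 CPM at 20 µg/mL, against 1981 to 2261 and 3525 to 3851 CPM with Soshiho-tang. With vehicle the sum was 4404 to 4683 CPM, so the 20 µg/mL libraries already lay below it. COL1A1, itself a collagen gene, carried most of the sum, with 2126 to 2817 CPM at 500 µg/mL of Okbyeongpung-san and 1548 to 1779 CPM with Soshiho-tang. The sum is therefore not separate from the matrix result. All libraries were of the SW1783 line, so these markers do not stand for a second cell type. Bulk samples cannot tell a changed share of cells within the line from changed RNA per cell, which was not tested. Of 8 epithelial markers, 3 reached 1 CPM, and the sum, carried by KRT18, was 81.6 to 84.5 CPM at 500 µg/mL of Okbyeongpung-san and 62.4 to 67.6 CPM with Soshiho-tang, against 146 to 155 and 154 to 168 CPM at 20 µg/mL. EPCAM, the defining marker, stayed at or under 0.192 CPM.

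Some genes of lipid synthesis and of mechanical signalling fell with both extracts. Of 25 genes of cholesterol synthesis and uptake, 5 fell with Okbyeongpung-san and 15 with Soshiho-tang, the 5 among the 15. Their difference was called higher in 2, SREBF2 (0.34, adjusted p = 0.0445) and STARD4 (0.46, adjusted p = 0.0469). Each of these 2 calls was lost in 8 of the 10 fits without 1 library. At an unadjusted p under 0.05 the difference of this list was higher in 8 and lower in 0. Of 15 genes of fatty acid synthesis, 6 fell with Okbyeongpung-san and 8 with Soshiho-tang, 6 of them with both, while ACSL1, which activates fatty acids, rose with both, and the difference was called in 0 by edgeR (0 also at an unadjusted p under 0.05). SCD, the stearoyl-CoA desaturase, changed by -0.70 ± 0.08 and -0.59 ± 0.06. Of 20 targets of YAP and SRF, factors that respond to cell stretch and actin, 11 fell with Okbyeongpung-san and 17 with Soshiho-tang. A called difference was higher in CCN2 (0.47, adjusted p = 0.0413) and lower in ANKRD1 (-0.56, adjusted p = 0.0452). These calls were lost in 7 and 9 of the 10 fits without 1 library. CNN2, the actin-binding calponin 2, was among the 11 with changes of -0.51 ± 0.10 and -0.66 ± 0.09.

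Most feedback genes of the ERK pathway rose with both extracts, and other signalling lists were mixed. Of 13 feedback genes of the ERK pathway, which restrain growth factor signalling, 8 rose and 1 fell with both. Of 19 immediate early genes, 4 rose and 2 (EGR1 and EGR3) fell with Okbyeongpung-san, and 8 rose with Soshiho-tang. The 4 that rose with Okbyeongpung-san rose with both, among them JUN, an AP-1 subunit (0.57 ± 0.07 and 0.68 ± 0.06, interval of the difference -0.32 to 0.09), and DUSP1, a phosphatase of MAP kinases (0.67 ± 0.08 and 0.62 ± 0.07, interval -0.19 to 0.28). KLF4, a zinc finger factor of this list, stood at 5.05, 6.2 and 6.02 CPM at 20 µg/mL and 10.9, 12.2 and 12.7 CPM at 500 µg/mL with Soshiho-tang, against 5.99 and 6.65 CPM at 20 µg/mL and 6.82 and 7.42 CPM at 500 µg/mL with Okbyeongpung-san (difference -0.88 ± 0.17). Of 19 p53 targets, 4 rose with both, BTG2 fell with Okbyeongpung-san and ZMAT3 with Soshiho-tang, and the difference was called in 0 by edgeR, with 1 higher and 2 lower at an unadjusted p under 0.05. CDKN1A, the cell cycle inhibitor p21, changed by 0.90 ± 0.13 and 0.59 ± 0.11 (interval -0.06 to 0.68). Of 5 metallothionein and zinc response genes tested, 1 rose with each extract (MT2A with Okbyeongpung-san and MT1X with Soshiho-tang).

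Genes outside these lists were among the largest shared falls. GABRQ, a subunit of the GABA-A receptor, changed by -1.44 ± 0.20 and -1.67 ± 0.16 (interval of the difference -0.34 to 0.81). GNAO1, a G protein subunit abundant in brain, changed by -1.33 ± 0.12 and -1.26 ± 0.10 (interval -0.41 to 0.26). The high libraries lay below the low ones in these genes with both extracts. Of 5 neuronal markers tested, 2 had a called difference, in opposite directions. SNAP25, a protein of vesicle fusion, had a fall that passed the test with Soshiho-tang only and differed by 0.58 ± 0.10. MAP2, a microtubule-associated protein, rose with Soshiho-tang alone and differed by -0.93 ± 0.18, a call lost in 3 of the 10 fits without 1 library.

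The 13 genes encoded by mitochondria had a median change of -0.42 with Okbyeongpung-san and -0.06 with Soshiho-tang. By edgeR 1 was called as falling with Okbyeongpung-san and 0 with Soshiho-tang. At an unadjusted p under 0.05, 7 were lower with Okbyeongpung-san and 1 with Soshiho-tang. The difference was called in 0 by edgeR (0 also at an unadjusted p under 0.05). With these genes left out of the counts before scaling, 582 genes were called, 570 of them among the 575.

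**Figure D5:**
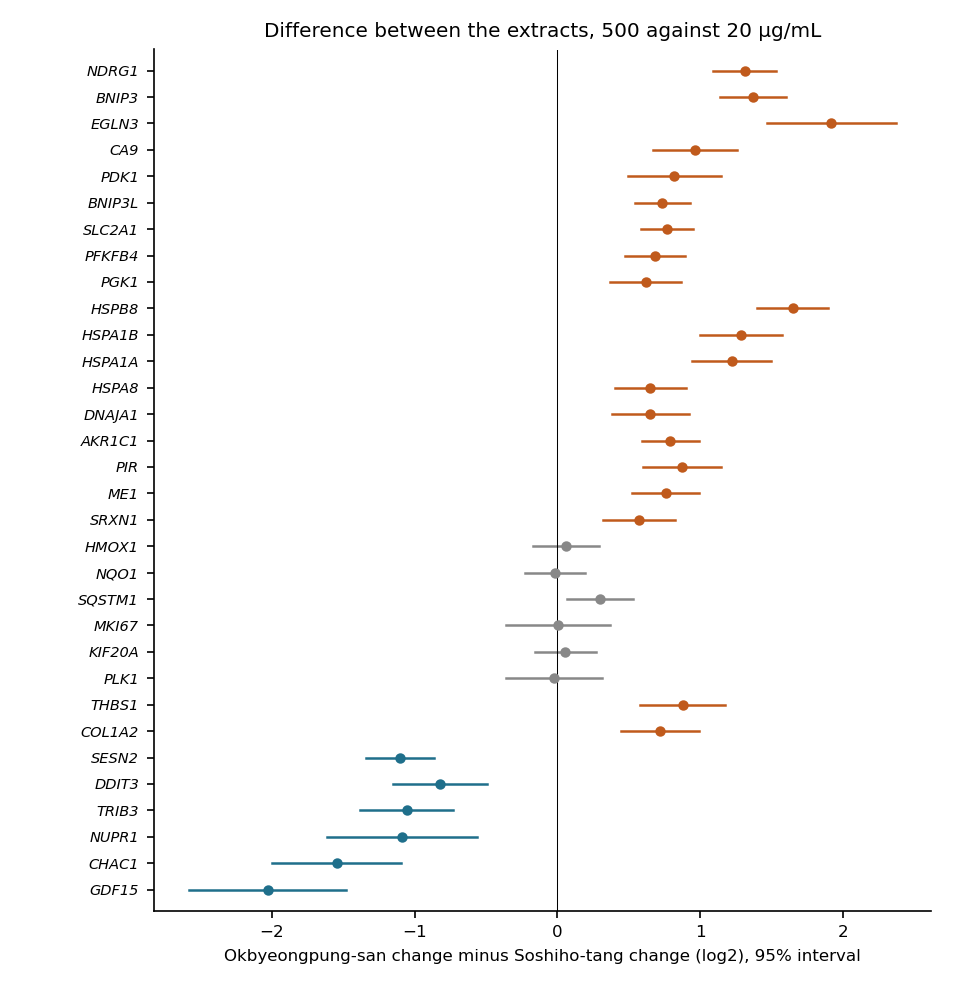
Difference between the extracts (Okbyeongpung-san change minus Soshiho-tang change, log2, 500 against 20 µg/mL) for 32 genes, with 95% intervals. Orange and blue mark genes called higher or lower and grey marks genes not called, and the intervals of HMOX1, NQO1, MKI67, KIF20A and PLK1 include 0.

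Few genes were called between 20 and 100 µg/mL. The 20 µg/mL libraries were not tested against vehicle. From 20 to 100 µg/mL the difference between the extracts was called in 0 of 17081 genes (0%) by edgeR and in 0 by DESeq2, with 317 at an unadjusted p under 0.05 and 78 called without a filter on low counts. Okbyeongpung-san changed 0 genes over this step (0%, 235 at an unadjusted p under 0.05), and Soshiho-tang lowered 5 (0.0293%). The 5 were CYP1B1, an enzyme induced by the aryl hydrocarbon receptor, AHRR, the repressor of that receptor, INSIG1, a brake on cholesterol synthesis, ALDH1A3, an enzyme of retinoic acid synthesis, and GDA, guanine deaminase. CYP1B1 stood at 91.9, 90.5 and 90.4 CPM at 20 µg/mL of Soshiho-tang and at 66, 70.1 and 67.3 CPM at 100 µg/mL, against 163 and 149.9 CPM at 20 µg/mL and 153 and 154 CPM at 100 µg/mL with Okbyeongpung-san. From 100 to 500 µg/mL the difference was called in 600 of 17081 genes (3.51%), 391 higher (2.29%) and 209 lower with Okbyeongpung-san. TUBB4A stood at 0.366 and 0.253 CPM at 100 µg/mL of Okbyeongpung-san, HSPB8 at 18.2 and 19.6 CPM and PSMD13 at 73.6 and 75.6 CPM, close to their levels at 20 µg/mL. BNIP3 stood at 112, 119.6 and 105 CPM at 100 µg/mL of Soshiho-tang and GDF15 at 5.3, 3.48 and 4.11 CPM. The count of 600 was 261 without Okbyeongpung-san 100 µg/mL replicate 2, 386, 331 and 397 without Soshiho-tang 500 µg/mL replicate 1, 2 or 3, and 363 without its 100 µg/mL replicate 3. With the replicate number as a block it was 1030, and 1256 with the block for Okbyeongpung-san alone.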

How the data were processed

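RNA was sequenced from SW1783 cells after 24 h with an extract or the DMSO vehicle. The deposited values are expected counts per gene, made by the authors. The submitters' processing notes name RSEM 1.3.3, STAR 2.7.3a, Trim Galore 0.6.5, FastQC 0.11.9 and the build hg38, without their order. The annotation and the strand setting of the counting are not given in the sources used here. Between 9.244% and 9.889% of the values of the 10 libraries were not whole and were rounded. Gene names came from matching 57055 of 60675 entries to the reference annotation.

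Genes passing filterByExpr (minimum count 10, total 15) in edgeR 4.0.16 (R 4.3.3) were scaled by TMM and fitted with the quasi-likelihood model over 4 groups of extract and concentration. The difference between extracts was the contrast of their 500 against 20 µg/mL changes, with Benjamini-Hochberg adjustment over all genes and a threshold of 0.05. Standard errors were the log2 change divided by the root of the F statistic. The 100 µg/mL steps came from a fit of 15 libraries, and printed CPM from scaling 18 libraries together. On simulated counts for 16840 genes, 68% of genes made to differ 2-fold and 86% of those made to differ 4-fold in the 500 against 20 µg/mL difference were called, with 9 unchanged genes called.

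The comparison, its members and the gene lists were chosen with earlier results of these data known, and the proteasome list after its values were seen. Named genes had a mean of at least 1 CPM in their highest group. They were the 12 largest called differences each way, the 10 largest shared changes each way, the 8 largest opposite changes, and from each list up to 4 members with a called difference and up to 3 shared ones. Other list members are named where a count is spelled out. Promoter letters are RefSeq sequence of GRCh38.p14, matched by symbol and searched on both strands for 6 motifs.

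Same-numbered Okbyeongpung-san libraries deviated together (r = 0.309 between 500 and 20 µg/mL), and their numbers go with batches D and E in the titles. The numbers were taken to pair them only in the alternative fits with a block. The main fit held no block, so a shift between the batches stayed in its spread. Same-numbered Soshiho-tang libraries did not deviate together (r = -0.0324, -0.0898 and -0.434). Alternatives were other scalings, filters and tools (DESeq2 1.42.0, limma 3.58.1), other sets of libraries, replicate blocks and leaving out each library. Replicate pairs differed by more than sampling noise (chi-square per degree of freedom 3.493 to 25.75).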

Additional observations from a re-analysis of the deposited data

Results flagged for a closer look

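The changes of 575 genes from 20 to 500 µg/mL differed between Okbyeongpung-san and Soshiho-tang in the interaction test. Of the genes that moved in opposite directions with the extracts, the 8 taken by the rule for named genes are given here. Values are the Okbyeongpung-san change minus the Soshiho-tang change on the log2 scale. The difference was 1.99 for EGF, 1.83 for IL11, 1.36 for PGF, 0.88 for GBE1 and 0.82 for HAS2, which rose with Okbyeongpung-san and fell with Soshiho-tang. It was -1.49 for TXNIP, -1.06 for OASL and -1.05 for EGR1, which fell with Okbyeongpung-san and rose with Soshiho-tang.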

How the results depend on the processing

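No gene among the 575 had the opposite sign in any alternative. With RLE size factors 570 genes were called (565 of them among the 575), with library totals alone 504 (465), with upper quartile scaling 549 (539), at a mean of at least 1 CPM 647 (562), with DESeq2 769 (517) and with limma voom 551 (536). The count was 1200 without a filter, 927 with 15 and 1292 with 27 libraries in the fit, and 1506 in batch E alone, where Okbyeongpung-san has 1 library at each concentration and is assumed to vary like Soshiho-tang. From 20 to 100 µg/mL 78 genes were called without a filter, and from 100 to 500 µg/mL 1020.

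With the replicate number as a block over both extracts, which the Soshiho-tang numbers did not bear out, 515 genes were called (437 of the 575), and 1030 for 100 to 500 µg/mL. With the replicate block for Okbyeongpung-san alone, chosen after seeing the data, the count was 1213, with 3477 genes for Okbyeongpung-san, 1673 shared and 1256 for 100 to 500 µg/mL. The block reversed no call.

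Leaving out 1 library at a time gave 240 to 1025 genes for the difference, 1093 to 2622 for Okbyeongpung-san, 2251 to 3917 for Soshiho-tang and 690 to 1175 shared. It gave 0 to 2 genes for the difference from 20 to 100 µg/mL and 261 to 788 from 100 to 500 µg/mL. Where 1 library of a group remained, it was assumed to vary like the other groups. Of 151 named genes 75 were called, and 47 of these kept their call in every alternative run. Of the 76 not called, 10 were called in at least 1 alternative. With 2 libraries of Okbyeongpung-san at a concentration, a difference that was not called is not shown to be absent.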

Other observations

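The genes of this paragraph lie outside the lists and the naming rule, and they were chosen after their values were seen. B4GALNT1, the enzyme that makes the gangliosides GM2 and GD2, stood at 21.9 and 24.2 CPM at 20 µg/mL and 71.8 and 82.2 CPM at 500 µg/mL of Okbyeongpung-san, against 22.4, 23.7 and 23.9 CPM and 23.9, 23.1 and 23.1 CPM with Soshiho-tang (difference 1.73 ± 0.11). UCHL1, a ubiquitin hydrolase abundant in neurons, rose by 1.89 ± 0.11 with Okbyeongpung-san and by 0.41 ± 0.09 with Soshiho-tang. The other way, THBD, the anticoagulant receptor thrombomodulin, rose by 1.32 ± 0.08 with Okbyeongpung-san and 2.49 ± 0.07 with Soshiho-tang. Some partners of the proteasome were picked in this way, so their common direction follows from the choice, and other partners were not counted. POMP, the assembly chaperone of the proteasome, differed by 0.75 ± 0.16, UFD1, a cofactor of VCP, by 0.59 ± 0.12, and PLAA, which binds ubiquitin and VCP, by 0.59 ± 0.09.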
